A study of Mus musculus with 9 samples.

Results

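Primitive endoderm is the extraembryonic lineage that separates from the pluripotent epiblast inside the blastocyst and later lines the yolk sac. The 9 genes described here, Gata4, Gata6, Sox7, Sox17, Foxa2, Hnf4a, Pdgfra, Dab2 and Cubn, were chosen by name as its regulators and markers, and all 9 were among the 24819 gene symbols of the expression table. In the embryo, FGF4 from epiblast precursors acts through FGF receptors and ERK on neighbouring cells. GATA6 counteracts NANOG there, and SOX17, GATA4 and SOX7 come on later. The maturing cells carry the receptor PDGFRA, lay down basement membrane, and take up maternal protein with cubilin and disabled 2. Cultures of mouse embryonic stem cells are known to hold low and variable levels of these messages.

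The RNA came from E14 cells, a mouse embryonic stem cell line, with no genetic change given in the labels. The cells were grown on gelatin at 37°C and 5% CO2 in 3 media, with 3 libraries each. ES medium was DMEM with 15% serum and leukemia inhibitory factor (LIF); 2iLIF was serum-free N2B27 with LIF and the 2i inhibitor pair; EPSCM was expanded potential stem cell medium, whose components the labels do not list. The series design calls them stably cultured. The labels do not say whether the 3 libraries of a medium are 3 cultures, and if they are not, the p-values cover only technical spread.

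Values are FPKM, fragments scaled by transcript length and library total, which allows levels to be set side by side between genes. Library sums ran from 546636 to 600728 FPKM. The lowest steps of the table put 1 fragment in a transcript of 1 kb at roughly 0.0468 FPKM. By principal components, 1 library of each medium, ES replicate 1, 2iLIF replicate 1 and EPSCM replicate 2 (library numbers 16, 18 and 19), stood apart on the component with 6.46% of the variance. All libraries carried the messages of pluripotent cells: the sum of Pou5f1, Nanog, Sox2, Zfp42 and Esrrb was 2552 to 2983 FPKM in ES, 2255 to 2584 in 2iLIF and 1391 to 1614 in EPSCM. All differences are given as log2(FPKM + 1) ± SE, a scale on which changes of low genes come out too small. A call required both a limma adjusted p below 0.05 and a difference reaching 1 in size. Testing was limited to the 12330 genes that reached 1 FPKM in 3 or more of the 9 libraries. Of the 5 pluripotency genes, 2 were called lower and 0 higher in EPSCM against ES, beside 7.97% and 11.7% of all tested genes. They were Pou5f1 (627 ± 88.4 against 1352 ± 162 FPKM, mean ± SD) and Zfp42 (163 ± 14.8 against 534 ± 46.0). Zfp42 was the 1 gene of these called lower in EPSCM against 2iLIF (404 ± 32.4), beside 5.91%.

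All 9 genes were low. The highest value of any was 3.73 FPKM, for Gata4 in EPSCM, and the highest rank of any was that of Sox7 in ES, at percentile 51.0 of the 19256 genes above 0 in any library. The 9 did not follow 1 pattern. Gata4, Gata6, Pdgfra and Dab2 were highest in EPSCM, and Sox7, Cubn and Hnf4a were highest in ES. Sox17 and Foxa2 stayed under 1 FPKM in every library and their media mostly overlapped. In bulk RNA, more cells of a type and more RNA per cell cannot be told apart.

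**Figure D1:**
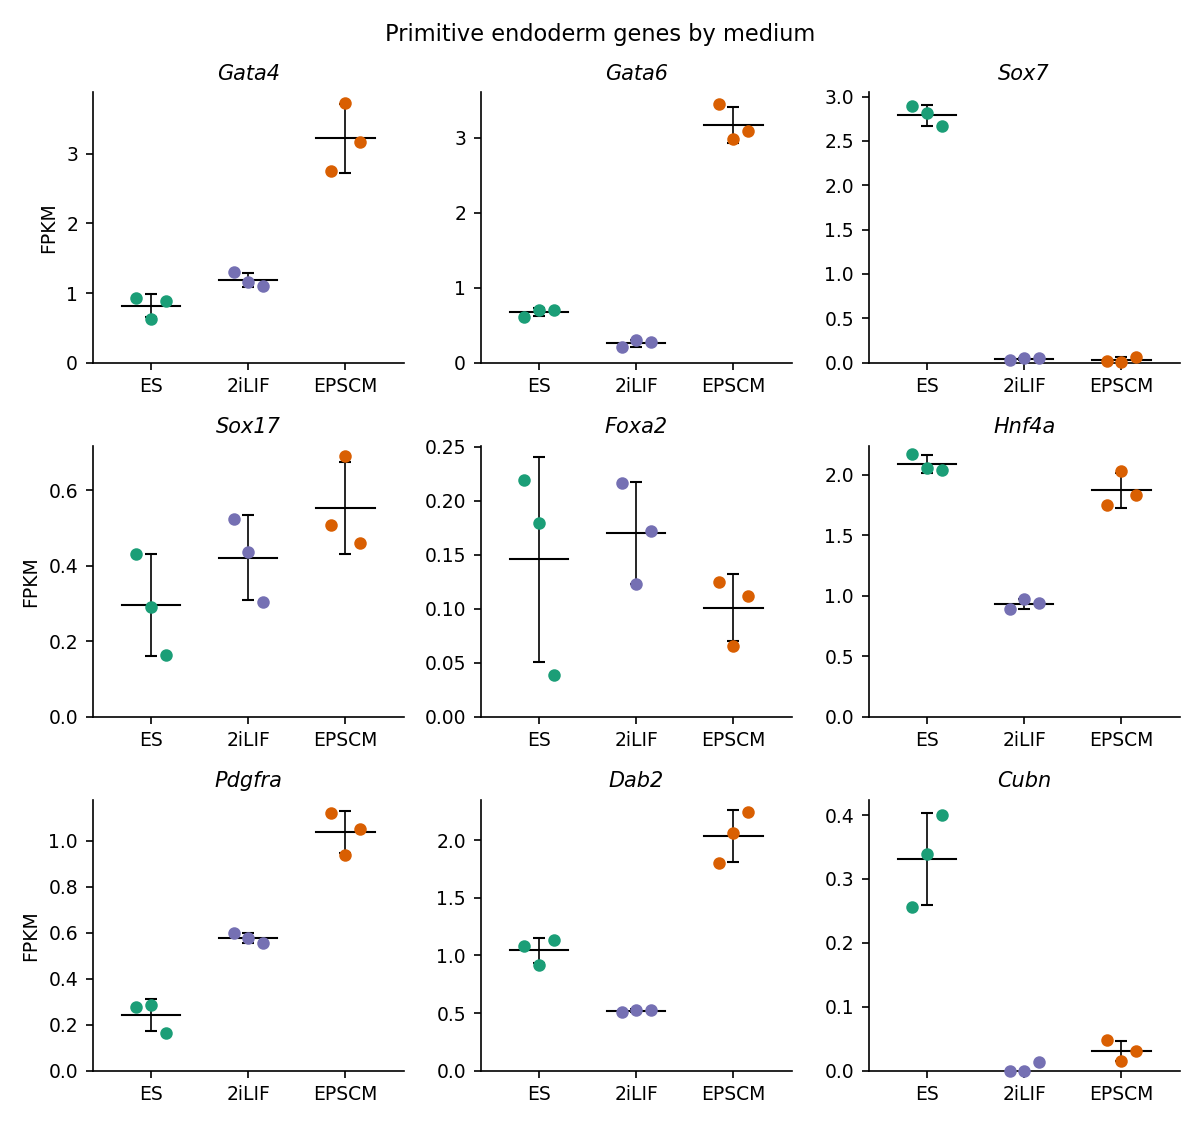
FPKM (vertical axis, starting at 0 and scaled separately for each gene) of the 9 genes in the 3 libraries of ES, 2iLIF and EPSCM medium; dots are libraries, horizontal lines are means and error bars are SD, left out for Cubn in 2iLIF, where 2 libraries are at 0. EPSCM lies above both other media for Gata4, Gata6, Pdgfra and Dab2, while ES lies above both for Sox7 and Cubn.

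Gata6, a zinc finger factor required for primitive endoderm and its earliest known regulator, differed between all 3 media. It measured 3.45, 2.98 and 3.09 FPKM in EPSCM replicates 1 to 3. ES libraries held 0.615, 0.703 and 0.706 FPKM, and 2iLIF libraries 0.205, 0.297 and 0.271. The media did not overlap, in the order EPSCM, ES, 2iLIF. The mean in EPSCM was 4.71 times that in ES, a difference of 1.32 ± 0.06 (adjusted p = 1.65e-07), and 12.3 times that in 2iLIF, a difference of 1.73 ± 0.06 (adjusted p = 3.67e-08). Both were called. For 2iLIF against ES the fit gave -0.41 ± 0.06 (adjusted p = 2.85e-04), less than the fold limit; with a pseudocount of 0.1 it was -1.12 (adjusted p = 6.43e-05) and called.

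Gata4, the related factor that follows GATA6 in the lineage, measured 2.75, 3.73 and 3.17 FPKM in EPSCM. ES libraries had 0.934, 0.631 and 0.886, and those in 2iLIF 1.30, 1.16 and 1.10. Again the media did not overlap, but here 2iLIF lay above ES. The EPSCM mean was 3.94 times the ES mean, a called difference of 1.21 ± 0.10 (adjusted p = 4.68e-06). Against 2iLIF it was 2.71 times as high, and the difference of 0.94 ± 0.10 (adjusted p = 2.89e-05) fell just short of the fold limit; it reached 1.13 with a pseudocount of 0.5, 1.36 with a pseudocount of 0.1 and 1.02 without EPSCM replicate 1. The difference of 0.27 ± 0.10 between 2iLIF and ES had an adjusted p of 0.0360, which ranged up to 0.126 over the other settings. Gata4 and Sox17 were highest in the library that stands apart in each of the 3 media, as were 38.4% of all tested genes; Gata6 was lowest in that library in each, as were 25.3%.

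Sox7, a SOX factor that comes on late in primitive endoderm, was present in ES medium and near the limit of measurement in the other media. It measured 2.90, 2.81 and 2.67 FPKM in ES, against 0.0255, 0.0486 and 0.0526 in 2iLIF and 0.0137, 0.0128 and 0.0679 in EPSCM. The ES values correspond to roughly 188 to 204 fragments per library and those of the other media to 1 to 5, so the lower level itself is poorly measured. Sox7 was called lower in EPSCM than in ES, at -1.88 ± 0.05 (adjusted p = 1.03e-08), and in 2iLIF than in ES, at -1.86 ± 0.05 (adjusted p = 6.83e-09). EPSCM and 2iLIF overlapped, with a difference of -0.02 ± 0.05 (adjusted p = 0.797).

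Sox17, its relative and a driver of primitive endoderm maturation, showed nothing of that size. ES libraries held 0.433, 0.291 and 0.163 FPKM, 2iLIF libraries 0.525, 0.437 and 0.303, and EPSCM libraries 0.509, 0.691 and 0.461. Neighbouring media overlapped, and only EPSCM and ES were apart. Sox17 did not reach the level needed for testing; without that filter the EPSCM to ES difference was 0.26 ± 0.09 (adjusted p = 0.0370), and those with 2iLIF were 0.13 and 0.14 (adjusted p = 0.285 for EPSCM against 2iLIF and 0.262 for 2iLIF against ES).

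Foxa2, a forkhead factor of visceral and definitive endoderm, was the lowest of the transcription factors next to the low Sox7 values. Its libraries ranged from 0.0387 to 0.219 FPKM in ES, 0.122 to 0.217 in 2iLIF and 0.0657 to 0.125 in EPSCM, which corresponds to about 2 to 10 fragments each. EPSCM overlapped ES and 2iLIF, and no difference was detectable at this depth (adjusted p = 0.255 or more in the 3 comparisons without the filter).

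Hnf4a, a nuclear receptor that drives the secretory program of visceral endoderm, was the member with similar levels in ES and EPSCM and a lower level in 2iLIF. The ES libraries stood at 2.17, 2.05 and 2.04 FPKM, the EPSCM libraries at 1.75, 2.03 and 1.83, and the 2iLIF libraries at 0.888, 0.971 and 0.940. All 3 media were apart, EPSCM and ES by little. The mean in EPSCM was 2.01 times that in 2iLIF (0.57 ± 0.06, adjusted p = 1.90e-05), and that in ES 2.24 times (2iLIF against ES -0.68 ± 0.06, adjusted p = 6.80e-06). Neither reached the fold limit, except 2iLIF against ES with a pseudocount of 0.1, at -1.08. EPSCM against ES gave -0.11 ± 0.06 (adjusted p = 0.116); the p passed 0.05 after quantile normalization (-0.35, adjusted p = 8.01e-04), after scaling to the same median ratio (-0.17, adjusted p = 0.0249) and without EPSCM replicate 2 (-0.15, adjusted p = 0.0434).

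Pdgfra, the receptor for platelet-derived growth factors that marks early primitive endoderm, had library values ordered ES, 2iLIF, EPSCM. These were 0.277, 0.285 and 0.164 FPKM in ES, 0.599, 0.577 and 0.554 in 2iLIF, and 1.12, 0.939 and 1.05 in EPSCM. No media overlapped, and the EPSCM mean was 4.28 times the ES mean. With only 2 libraries at 1 FPKM it missed the filter. Tested without it, EPSCM against ES gave 0.71 ± 0.05 (adjusted p = 5.44e-06), EPSCM against 2iLIF 0.37 ± 0.05 (adjusted p = 3.06e-04) and 2iLIF against ES 0.35 ± 0.05 (adjusted p = 4.83e-04). For EPSCM against ES it was, with a pseudocount of 0.1, chosen after seeing the data because it compresses low values less, 1.75 ± 0.16 (adjusted p = 2.84e-05), past the fold limit. At that setting 2iLIF against ES also passed it, at 1.01 ± 0.16 (limma adjusted p = 9.12e-04), and EPSCM against 2iLIF did not (0.75 ± 0.16).

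Dab2, an adaptor that links cargo receptors to clathrin and keeps the endoderm epithelium ordered, took the same order of media as Gata6. EPSCM libraries held 1.80, 2.06 and 2.25 FPKM, ES libraries 1.08, 0.920 and 1.13, and 2iLIF libraries 0.510, 0.524 and 0.530, with no overlap. EPSCM was above 2iLIF by 0.99 ± 0.07 (adjusted p = 1.80e-06), at the edge of the fold limit, which it passed at 1.31 with a pseudocount of 0.5 and at 1.05 without EPSCM replicate 1. EPSCM was above ES by 0.57 ± 0.07 (adjusted p = 5.82e-05), and 2iLIF below ES by less (-0.42 ± 0.07, adjusted p = 4.77e-04).

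Cubn encodes cubilin, the large receptor that DAB2 helps to internalise, yet like Sox7 it was highest in ES. It measured 0.257, 0.339 and 0.400 FPKM in ES and 0.0473, 0.0146 and 0.0302 in EPSCM, and it was listed at 0 in 2 of the 2iLIF libraries and at 0.0134 FPKM in the other. Cubn was not tested because of its level. Without the filter ES was above EPSCM (EPSCM against ES -0.37 ± 0.04, adjusted p = 3.85e-05) and above 2iLIF (2iLIF against ES -0.41 ± 0.04, adjusted p = 2.80e-05). With a pseudocount of 0.1 as well, chosen after seeing the data, these were -1.72 ± 0.15 and -2.04 ± 0.15, both past the fold limit. EPSCM and 2iLIF did not overlap but were close to the limit of measurement (0.04 ± 0.04, adjusted p = 0.425).

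**Figure D2:**
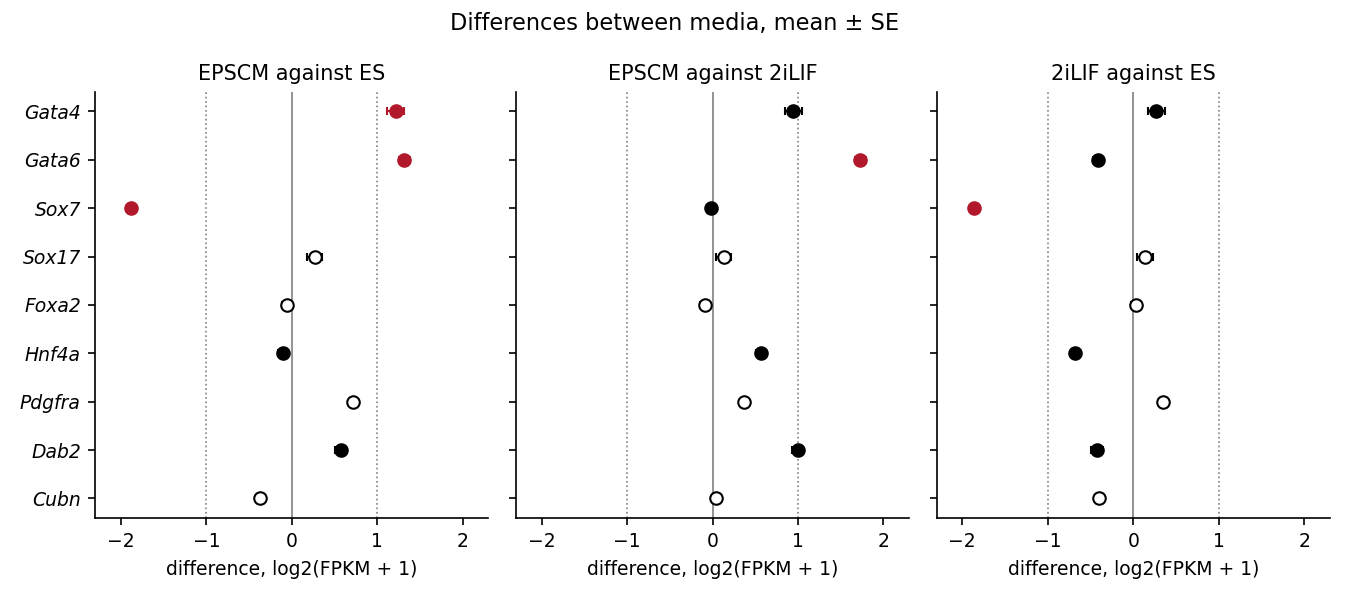
Difference between media on the log2(FPKM + 1) scale (horizontal axis) for each of the 9 genes in the 3 comparisons; points are fitted differences, error bars are SE where larger than the point, and dotted lines mark the fold limit of 1. Filled points passed the filter on low values, open points were fitted without it, and red points were called: Gata4, Gata6 and Sox7 in EPSCM against ES, Gata6 in EPSCM against 2iLIF, and Sox7 in 2iLIF against ES.

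In counts, 5 of the 9 genes were tested. In EPSCM against ES, 2 of these were called higher and 1 lower, beside 11.7% and 7.97% of all tested genes. In EPSCM against 2iLIF, 1 was called higher and 0 lower, beside 10.1% and 5.91%. In 2iLIF against ES, 0 were called higher and 1 lower, beside 7.62% and 7.12%. Without the fold limit, 3 had a limma adjusted p under 0.05 higher in EPSCM than in ES and 1 lower, beside 41.6% and 31.5%. Against 2iLIF these numbers were 4 and 0, beside 36.6% and 31.4%, and for 2iLIF against ES 1 and 4, beside 34.8% and 32.2%. With a pseudocount of 0.1 and no filter, 3 of all 9 were called higher in EPSCM than in ES and 2 lower (beside 14.7% and 8.9%), 3 higher and 0 lower against 2iLIF (14.1% and 7.29%), and 1 higher and 4 lower in 2iLIF against ES (9.13% and 10.5%). Gata6 and Sox7 passed the filter only through the 3 libraries of the medium where they were high, so their calls were favoured by the filter and the counts are given as a description. Over all 9 genes, the libraries of EPSCM lay above those of ES for 5 and below for 3, beside 35.0% and 25.6% of the 19256 genes above 0. EPSCM lay above 2iLIF for 6 and below for 0, beside 34.2% and 25.3%. The libraries of 2iLIF lay above those of ES for 2 and below for 5, beside 28.2% and 30.1%. The 3 comparisons share libraries with each other, and each medium enters 2 of them.

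Across the 9 libraries, the pairs with the closest profiles were Sox7 and Cubn (Pearson r = 0.97) and Gata6 and Dab2 (r = 0.96), followed by Gata4 and Pdgfra (r = 0.91). The most opposed pair was Sox7 and Pdgfra (r = -0.84). These values describe 9 points in 3 groups and mostly repeat the order of the media. By the same r over all tested genes with a proper name, the closest to Gata6 were Sbf2, Ttc39c and Pdk4, each at 0.998. Arhgap45, Igsf3 and Fgf8 came closest to Gata4, at 0.997, 0.997 and 0.996, and Ccnd2, Pdzd4 and Tpt1 to Sox7, each at 0.999. For Dab2 they were Ssc5d, Ccdc113 and Cyb561, at 0.992, 0.991 and 0.991. Mfng and Ramp3 were among the closest to Hnf4a, both at 0.995.

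Promoter windows, the 250 bases before a RefSeq start site, are shown for members with contrasting orders of media: Dab2, which shares the order of Gata6, and Pdgfra, high in EPSCM, against Cubn, high in ES. Capitals mark the GATA words searched on both strands, AGATAA or the word TGATAA, each also with a final G for the final A. The sequences are RefSeq, build GRCm38.p6, whereas the expression table was made on mm9, and Gata4, Gata6, Sox7 and Sox17 are only named here.
Dab2, first start site, chr15:6299539-6299788, plus strand: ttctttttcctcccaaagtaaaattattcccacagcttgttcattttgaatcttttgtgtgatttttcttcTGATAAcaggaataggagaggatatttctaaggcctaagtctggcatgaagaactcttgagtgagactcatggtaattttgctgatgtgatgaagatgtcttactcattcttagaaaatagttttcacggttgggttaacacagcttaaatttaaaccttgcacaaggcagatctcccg
Dab2, second start site, chr15:6386498-6386747, plus strand: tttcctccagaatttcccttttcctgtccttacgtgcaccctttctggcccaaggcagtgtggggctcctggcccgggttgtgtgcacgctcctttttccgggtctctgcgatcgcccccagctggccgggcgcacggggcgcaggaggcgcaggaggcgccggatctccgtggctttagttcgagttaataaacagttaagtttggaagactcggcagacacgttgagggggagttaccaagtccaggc
Pdgfra, chr5:75152001-75152250, plus strand: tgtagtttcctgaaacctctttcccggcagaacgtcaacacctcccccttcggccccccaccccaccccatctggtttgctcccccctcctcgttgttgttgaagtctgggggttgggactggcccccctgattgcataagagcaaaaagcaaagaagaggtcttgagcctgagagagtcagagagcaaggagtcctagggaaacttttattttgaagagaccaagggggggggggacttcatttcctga
Cubn, chr2:13491877-13492126, minus strand: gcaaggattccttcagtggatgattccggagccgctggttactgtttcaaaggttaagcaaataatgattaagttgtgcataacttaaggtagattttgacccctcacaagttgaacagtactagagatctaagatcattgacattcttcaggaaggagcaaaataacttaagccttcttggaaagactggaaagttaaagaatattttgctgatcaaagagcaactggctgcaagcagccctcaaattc

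A GATA word was found in 3 of the 9 windows of the 5 matched members: 1 each in the first Dab2 window, in the first of 2 Hnf4a windows (AGATAA) and in the last of 3 Foxa2 windows (AGATAA). Of all 32851 windows of this length, 26.5% held such a word. The Pdgfra and Cubn windows and the second Dab2 window held none of these letters.

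Other genes of the lineage were counted from lists. Of the partners of cubilin and disabled 2 in endocytosis, Lrp2 and Amn had the order of media of Dab2, with EPSCM highest and 2iLIF lowest, and not that of Cubn. Lrp2, which encodes megalin, averaged 5.34 ± 0.420 FPKM in EPSCM, 3.45 ± 0.218 in ES and only 0.610 ± 0.0848 in 2iLIF (SD, n = 3 here and below). Amn, the membrane partner without which cubilin does not reach the surface, was at 2.06 ± 0.382, 1.35 ± 0.0419 and 0.190 ± 0.0309 in the same order. Both were called higher in EPSCM than in 2iLIF, by 1.98 ± 0.07 (adjusted p = 4.70e-08) and 1.36 ± 0.09 (adjusted p = 1.14e-06), and neither was called against ES. Of the 6 partners tested, 2 were called higher in EPSCM than in ES and 0 lower: Myo6, a motor of coated vesicles (1.79), and its adaptor Gipc1 (1.07, but 0.97 after scaling to the same median ratio and 0.98 without EPSCM replicate 2). The share of all tested genes was 11.7% higher and 7.97% lower, and the median difference of the partners was 0.49 beside 0.09. In EPSCM against 2iLIF, 2 were called higher, Lrp2 and Amn, and 1 lower, beside 10.1% and 5.91% of all tested genes. The lower one was Lrpap1, a chaperone of megalin, at 25.0 ± 3.01 against 55.2 ± 4.74 FPKM. In 2iLIF against ES, 3 were called higher, Gipc1, Lrpap1 and Myo6, and 1 lower, Lrp2, beside 7.62% and 7.12%. The rise of Gipc1 and Myo6 over ES was therefore not particular to EPSCM. Gipc1 averaged 113 FPKM with 2iLIF and 111 with EPSCM, beside 52.5 for ES. Myo6 averaged 4.51 with 2iLIF and 6.11 with EPSCM, beside 1.06 for ES.

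The basement membrane list, proteins that primitive and parietal endoderm make in quantity, counted 4 of 10 tested genes as higher in EPSCM against ES and 0 as lower. Over all tested genes the shares were 11.7% and 7.97%. The median difference of the list was 0.81 beside 0.09 over all tested genes. Col4a1 and Col4a2, the chains of type IV collagen, rose to 27.1 ± 1.09 from 5.79 ± 0.223 FPKM and to 15.7 ± 1.23 from 3.13 ± 0.220, differences of 2.05 ± 0.06 (adjusted p = 1.70e-08) and 2.01 ± 0.07 (adjusted p = 4.94e-08). Nid1 and Nid2, which link collagen to laminin, were the other genes called, and Nid1 was higher still in 2iLIF, at 123 ± 1.92 FPKM against 80.4 ± 2.36 in EPSCM. The laminin chains did not share this: Lama1 was at 17.1 ± 1.38 FPKM in EPSCM and 21.7 ± 1.52 in ES, and Lamb1 at 14.9 ± 1.55 and 23.5 ± 1.09. Sparc, a collagen-binding protein abundant in parietal endoderm, was at 104 ± 0.729 and 84.4 ± 0.864. Against 2iLIF, Col4a1, Col4a2 and the collagen chaperone Serpinh1 were called higher and none lower, beside 10.1% and 5.91%, with a median of 0.40 beside 0.03.

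The PDGF genes did not share an order of media: Pdgfra was highest in EPSCM, where the ligand genes Pdgfa and Pdgfc were lowest. Pdgfa, which encodes a ligand of PDGFRA, ranged from 14.8 to 17.8 FPKM in EPSCM and averaged 33.5 ± 1.92 in ES and 77.7 ± 7.03 in 2iLIF. Pdgfc stood at 1.51 ± 0.128, 6.19 ± 0.793 and 13.4 ± 1.54. Both were called lower in EPSCM against either medium: Pdgfa by -1.02 ± 0.09 against ES (adjusted p = 6.73e-06) and -2.21 ± 0.09 against 2iLIF (adjusted p = 6.94e-08), Pdgfc by -1.51 ± 0.11 and -2.51 ± 0.11 (adjusted p = 1.85e-06 and 1.01e-07). The Pdgfa call against ES was lost at -0.97 without ES replicate 1 or EPSCM replicate 1 and at -0.997 without EPSCM replicate 3. Pdgfb went the other way, at 4.59 ± 0.252, 2.08 ± 0.186 and 1.08 ± 0.136 FPKM, and was called higher against 2iLIF. The other receptor, Pdgfrb, rose to 5.74 ± 0.653 from 1.29 ± 0.220 in ES (1.56 ± 0.10, adjusted p = 8.35e-07). At 3.28 ± 0.267 FPKM, 2iLIF also lay above ES without overlap. That difference was called only with a pseudocount of 0.5 (1.09) or 0.1 (1.29).

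Fgf4, the epiblast signal for the lineage, averaged 165 ± 4.71 FPKM in EPSCM against 85.3 ± 2.54 in ES and 88.8 ± 3.10 in 2iLIF, differences of 0.94 ± 0.05 and 0.88 ± 0.05, just under the fold limit; after quantile normalization the difference from ES was 1.15 (adjusted p = 2.26e-07) and called. Its receptor Fgfr1 was at 33.9 ± 2.84, 22.9 ± 1.92 and 18.6 ± 1.21, and Fgfr2, the receptor enriched in primitive endoderm, at 0.836 ± 0.0493, 0.433 ± 0.0613 and 0.148 ± 0.0225 FPKM, below the filter. Of the 10 tested genes of this route 2 were called higher in EPSCM than in ES, the adaptor Frs2 at 1.11 ± 0.09 and the exchange factor Sos1 at 1.00 ± 0.11, beside 11.7% of all tested genes. Frs2 lost its call after quantile normalization (0.97), and Sos1 after quantile normalization (0.84), after scaling to the same median ratio (0.91) and without ES replicate 1 (0.92), EPSCM replicate 1 (0.98) or EPSCM replicate 3 (0.94), and in the close libraries alone (0.999). No gene of the route was called in the other comparisons, but Frs2 and Sos1 also lay above ES in 2iLIF, without overlap. Frs2 averaged 15.3 ± 0.755 FPKM in EPSCM, 12.8 ± 0.936 in 2iLIF and 6.56 ± 0.840 in ES. For Sos1 the means were 10.5 ± 1.14, 7.31 ± 0.843 and 4.74 ± 0.612. Nanog, which opposes GATA6, averaged 295 ± 2.17 FPKM in EPSCM, against 326 ± 9.25 in ES and 432 ± 4.82 in 2iLIF; its difference of -0.14 ± 0.05 between EPSCM and ES was small and took the other sign (0.07) after quantile normalization.

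**Figure D3:**
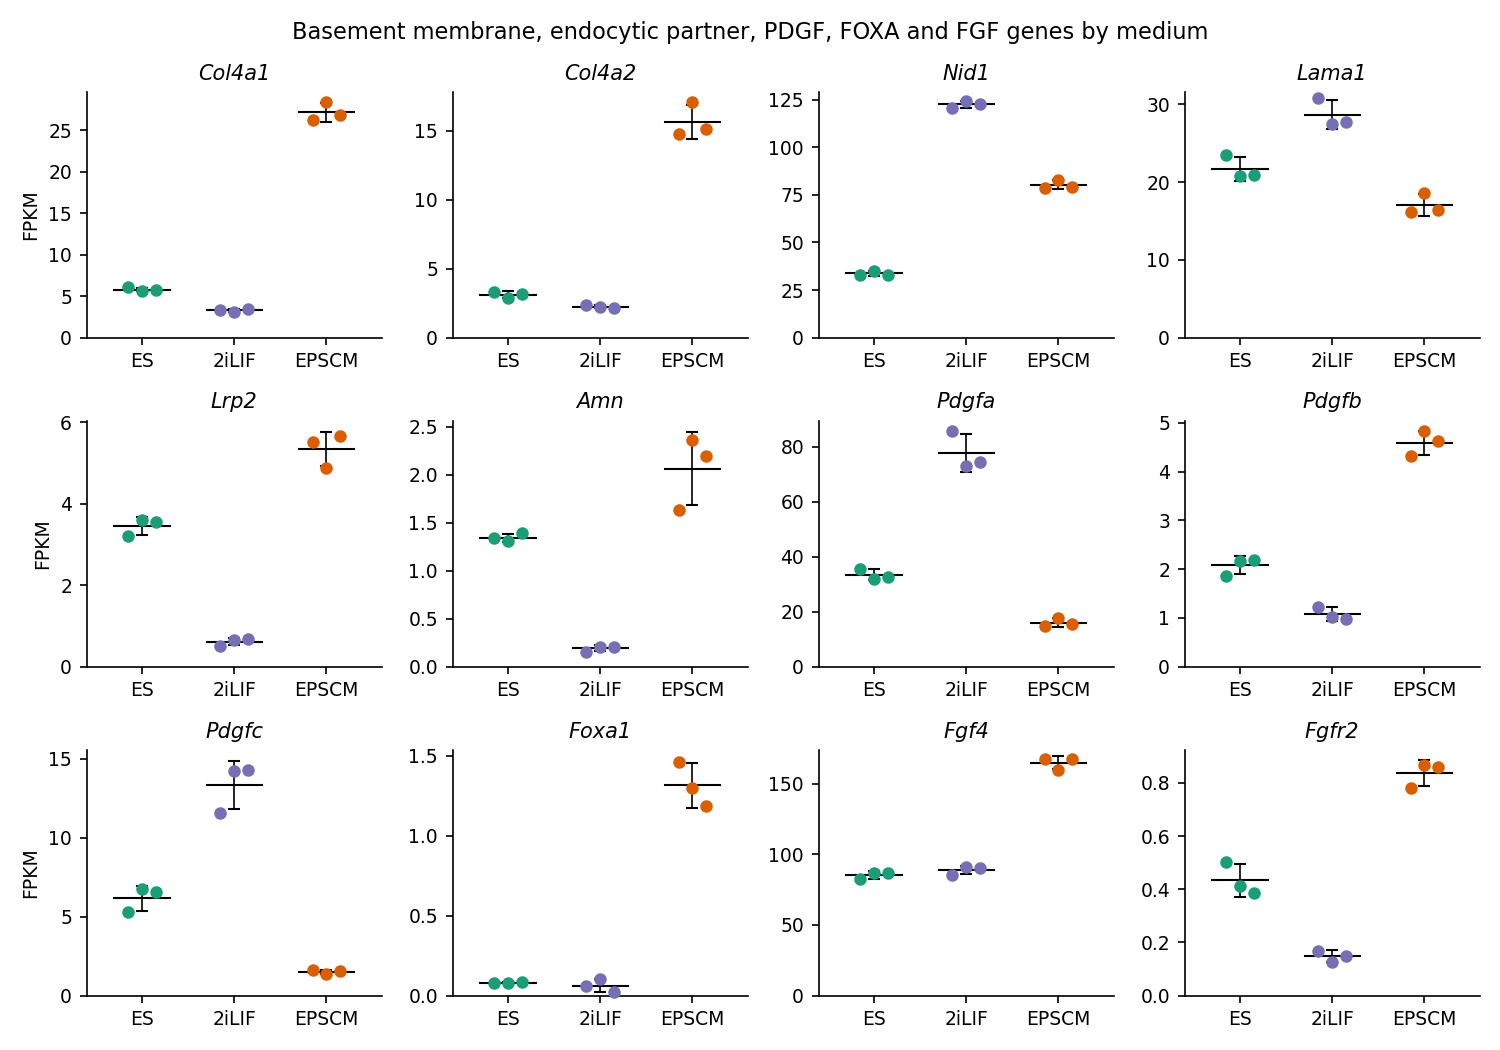
FPKM (vertical axis, starting at 0 and scaled separately for each gene) of 12 genes that act with the 9 members, in the 3 libraries of each medium; dots are libraries, horizontal lines are means and error bars are SD. Collagen IV, Lrp2, Amn, Foxa1, Fgf4 and Fgfr2 are highest in EPSCM, while Pdgfa and Pdgfc are lowest there.

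Among the other endoderm transcription factors, limma called 3 of 6 tested higher and 0 lower in EPSCM against ES, beside 11.7% and 7.97% of all tested genes. The median was 0.94 beside 0.09, and 5 others of the 11 were below the filter. Foxa1, the closest relative of Foxa2, averaged 1.31 ± 0.139 FPKM in EPSCM, against 0.0812 ± 0.00426 in ES and 0.0621 ± 0.0397 in 2iLIF, called in both comparisons at 1.10 ± 0.06 and 1.12 ± 0.06; after quantile normalization these were 0.94 and 0.93, short of the limit. It passed the filter only through the EPSCM libraries, so both calls were favoured by it. Foxa3, below the filter, went the other way, with a mean of 0.407 ± 0.0354 FPKM in EPSCM against 0.966 ± 0.0626 in ES and 0.651 ± 0.0290 in 2iLIF and no overlap (EPSCM against ES -0.48 ± 0.04, limma adjusted p = 9.60e-06, without the filter). Eomes and Gsc, shared by visceral endoderm and the primitive streak, rose by 1.40 ± 0.07 and 1.69 ± 0.10 against ES. Both were also called higher in 2iLIF than in ES, by 1.08 ± 0.07 and 2.25 ± 0.10, and Gsc was highest in 2iLIF, at 6.28 ± 0.834 FPKM against 3.92 ± 0.274 in EPSCM. Against 2iLIF 3 were higher and 0 lower, beside 10.1% and 5.91% of all tested genes: Foxa1, Otx2 (1.36 ± 0.06) and Cebpa (1.22 ± 0.07, or 0.97 after quantile normalization). Gata5, another endodermal GATA factor, was at 0.0364 ± 0.0168 FPKM or less in every medium.

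Many genes for secreted products of visceral endoderm were listed at 0 or at trace level. Afp was listed at 0 in all 3 ES libraries, and its mean and that of Ttr were at or below 0.0303 FPKM in every medium; Apoa4 was listed at 0 in all 9 libraries. Only 6 of 17 such genes were tested. In EPSCM against ES, the calls were 3 higher, Apoe, Rbp4 and Fgg, and 1 lower, Spink1, beside 11.7% and 7.97% of all tested genes. In 2iLIF against ES, 1 was called higher, Apoe, and 2 lower, Spink1 and Trf, beside 7.62% and 7.12%. Apoe averaged 860 ± 104 FPKM in EPSCM, 949 ± 123 in 2iLIF and 346 ± 48.6 in ES, so its rise was not particular to EPSCM. Both Spink1 calls rested on ES libraries of 2.55, 8.93 and 10.6 FPKM. Fgg passed the filter only through the EPSCM libraries and Spink1 only through those of ES, so their calls were favoured by it. Rbp4, the plasma carrier of retinol, averaged 6.43 ± 0.582 FPKM in EPSCM, against 1.70 ± 0.387 in ES and 0.428 ± 0.215 in 2iLIF. Fgg, a fibrinogen chain, was at 1.79 ± 0.450, 0.205 ± 0.102 and 0.107 ± 0.107. Of 8 tested genes of parietal endoderm, limma called 0 in EPSCM against ES. Against 2iLIF it called 1 higher, the keratin Krt19 (2.51), and 2 lower, Krt8 (-2.77) and the activin antagonist Fst (-2.94). The shares of all tested genes were 10.1% and 5.91%, and Fst passed the filter only through the 2iLIF libraries. Thbd, a surface marker of parietal endoderm, averaged 0.127 ± 0.0175 FPKM or less in each medium.

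Because several members also mark other cells, the markers of those cells are given beside them, and their part in these results was not tested. Markers of mesoderm, which also expresses Pdgfra and Gata4, summed to 4.15 to 5.04 FPKM in ES, 14.2 to 16.1 in 2iLIF and 5.63 to 6.98 in EPSCM, with 1 of 8 at a mean of 1 FPKM or more in each medium. The 2iLIF sum was mostly T, at 12.7 ± 0.854, and hides that the markers did not share 1 order of media. Twist1 averaged 2.84 ± 0.490 FPKM in EPSCM, against 0.751 ± 0.168 in ES and 0.543 ± 0.0125 in 2iLIF, and was called higher in EPSCM against ES (1.13 ± 0.10, or 0.96 and not called after quantile normalization) and against 2iLIF (1.31 ± 0.10). It passed the filter only through the EPSCM libraries, so both calls were favoured by it. Hand1, a marker of mesoderm and of trophoblast, was at 0.866 ± 0.164, 0.139 ± 0.0434 and 0.0340 ± 0.0244 in the same order, with no overlap and below the filter. Other markers of the list went differently. Mesp2 was highest in ES, at 2.04 ± 0.358 FPKM against 0.917 ± 0.0594 in EPSCM and 0.269 ± 0.115 in 2iLIF, and Mesp1 also had its highest mean in ES. Kdr and Mixl1 had their lowest means in EPSCM, at 0.115 ± 0.0318 and 0.246 ± 0.0909 FPKM. Tbx6 overlapped between all 3 media. For markers of fibroblasts, which also express Pdgfra, the sums were 15.8 to 18.4, 3.96 to 4.36 and 11.8 to 14.7 FPKM, and apart from Thy1 and Pdgfrb all 8 others were under 1 FPKM on average, with Col3a1, Dcn, Lum and Postn at or near 0. Definitive endoderm and mesendoderm markers summed to 3.96 to 4.73, 22.9 to 26.9 and 13.2 to 13.5 FPKM, with Cer1 listed at 0 in all 9 libraries. The 2iLIF sum again included T, at 12.7 FPKM, and these markers did not share 1 order of media either. Gsc was highest in 2iLIF, and Mixl1 had its lowest mean in EPSCM. Eomes and Cxcr4 were highest in EPSCM, Cxcr4 at 4.32 ± 0.492 FPKM against 2.11 ± 0.266 in ES and 2.00 ± 0.277 in 2iLIF. Trophoblast markers summed to 31.0 to 35.0, 31.8 to 35.4 and 45.6 to 52.2 FPKM, mostly Tfap2c. Gata3 was highest in EPSCM among the media, at 0.613 ± 0.0248 FPKM against 0.0331 ± 0.0110 in ES and 0.289 ± 0.0225 in 2iLIF. Hand1 and Eomes were also highest there, while Elf5 was at 0.0310 ± 0.0269 FPKM or less and Tpbpa at 0. Cdx2 and Plet1 instead had their lowest means in EPSCM. Cdx2 averaged 0.0411 there, beside 2.85 for 2iLIF and 0.109 for ES, and was called lower against 2iLIF (-1.89 ± 0.05). It passed the filter only through the 2iLIF libraries, so that call was favoured by it. Plet1 averaged 4.06 there, beside 12.6 for ES and 4.32 for 2iLIF, and was called lower against ES.

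Gata4 and Sox7 are near neighbours on chromosome 14, with 3 tested genes between them in the RefSeq order, and Sox17 lies on chromosome 1. Chromosome 14 genes had a median difference of -0.06 in EPSCM against ES, beside 0.10 for the other chromosomes, and -0.17 beside 0.03 in 2iLIF against ES; for chromosome 1 these were -0.29 beside 0.11 and -0.28 beside 0.04. Around the pair, the calls among 23 other tested genes were 3 higher and 5 lower for EPSCM against ES. The shares were 11.7% and 7.97% over all tested genes, and 11.9% and 16.4% over those of chromosome 14. Tdh, the first tested gene after Gata4, fell by 3.40 on the log2 scale in EPSCM against ES, and Ctsb, a few genes before it, rose by 1.76. Pinx1, just before Sox7, and Mir124a-1hg, shortly after it, were called lower with it in both media against ES: Pinx1 at -1.77 in EPSCM and -1.37 in 2iLIF, and Mir124a-1hg at -1.80 and -1.46. Msra, which lies between Sox7 and Mir124a-1hg, averaged 7.18 to 7.52 FPKM in all 3 media. These neighbours were picked after their values were seen, and what position contributed to Sox7 was not tested.

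**Figure D4:**
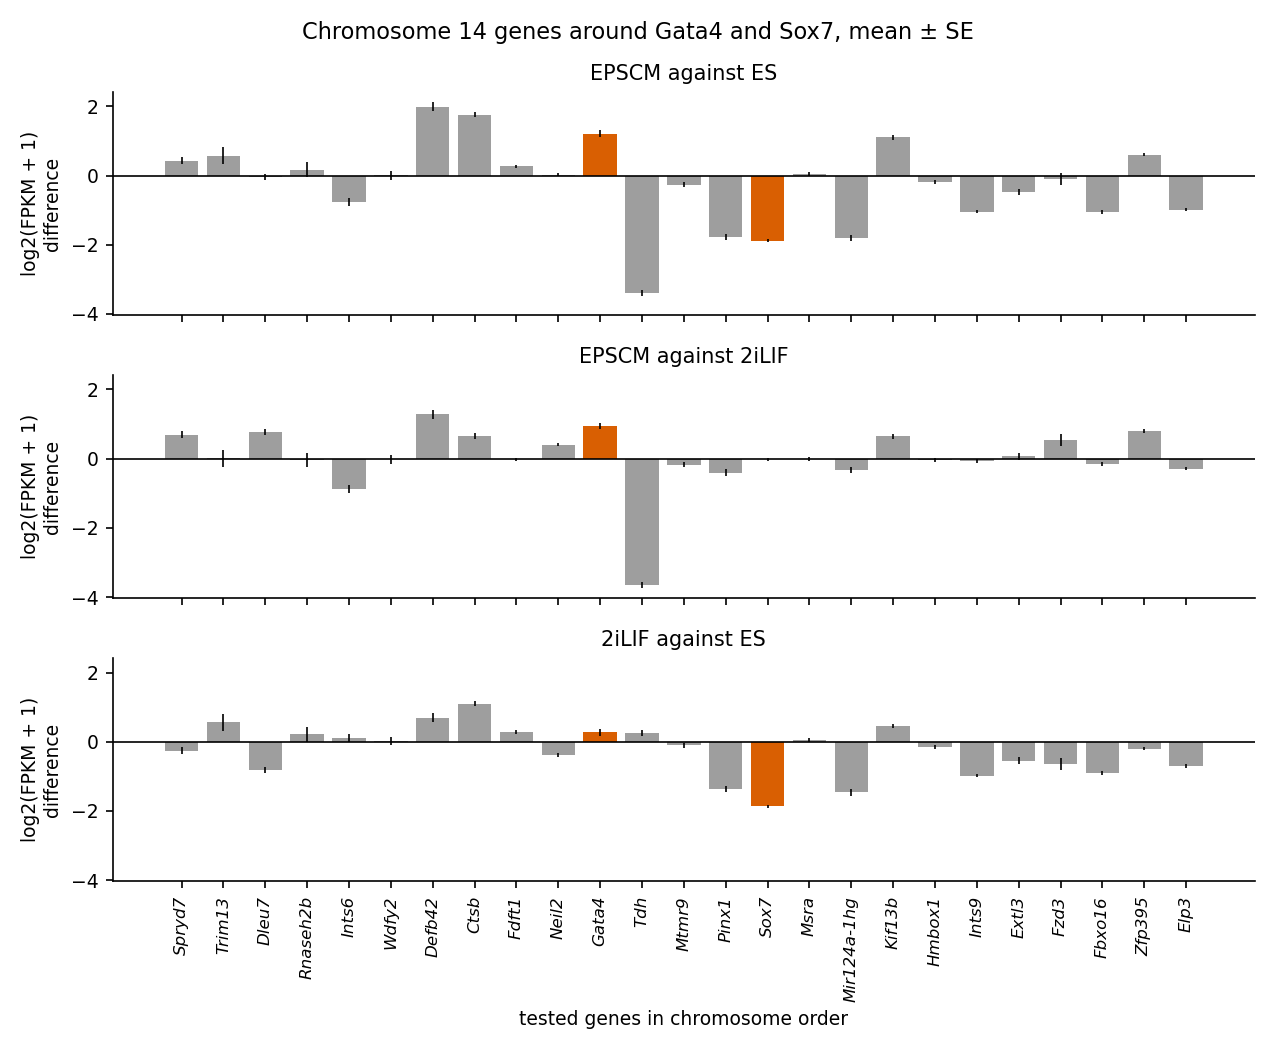
Difference between media on the log2(FPKM + 1) scale (vertical axis) for 25 tested genes of chromosome 14 in their order on the chromosome; bars are fitted differences, error bars are SE, and orange bars are Gata4 and Sox7. In EPSCM against ES the neighbours moved in both directions, and Pinx1, Sox7 and Mir124a-1hg were lower together in EPSCM and in 2iLIF against ES.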

How the data were processed

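Per the submitters' processing notes, the authors used STAR, Cuffnorm and mm9 to make the deposited FPKM values. No source used here gives versions, annotation, between-library scaling or whether strand was used. RNA was selected as messenger RNA with a stranded kit, per the labels' protocols. Replicates were numbered in accession order. The members and all lists were chosen with earlier results of these data known. From log2(FPKM + 1), 1 limma model (limma 3.58.1, R 4.3.3, empirical Bayes with a trend) was fitted over all 9 libraries, with Benjamini-Hochberg adjustment over 12330 genes, and tested on simulated data. Named genes were all members, up to 3 called genes per list reaching 1 FPKM on average, a preset group such as Fgf4 and Nanog, and the 3 genes closest to each tested member; not every one is printed, and 1 is not reported here. Alternatives were other pseudocounts, filters, scalings, a fit of 2 media, a covariate for library numbers of 16 and above, a prior without trend, and each library left out. Fragment numbers divide FPKM times the longest GENCODE transcript by the table's lowest step and are rough, so no counting interval is given. Gene order and promoters came from RefSeq GRCm38.p6, matched for 24734 of 24819 symbols. An antisense gene in the table overlapped Gata6 and another Hnf4a, both at 0.152 FPKM or less.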

Additional observations from a re-analysis of the deposited data

How the results depend on the processing

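Under the planned settings no call of a member was lost: of the recomputed differences, 235 stayed called or not called as in the text and 8 were newly called. The adjusted p alone crossed 0.05 for Hnf4a in EPSCM against ES and for Gata4 in 2iLIF against ES. In EPSCM against 2iLIF the number of members called higher was 3 in place of 1 with a pseudocount of 0.1, with a pseudocount of 0.5 and with a pseudocount of 0.1 and no filter; leaving out 1 library at a time gave 1 to 3. In 2iLIF against ES the number called lower was 3 with a pseudocount of 0.1 and 4 with that pseudocount and no filter, which also called 1 higher, and in EPSCM against ES 2 lower. Over all genes that last setting called 2824 higher and 1713 lower in EPSCM against ES, 2717 and 1403 in EPSCM against 2iLIF, and 1758 and 2023 in 2iLIF against ES, where a pseudocount of 0.1 alone gave 1361 lower; the settings of the text gave 1440 and 983, 1250 and 729, and 939 and 878. It and the fit to the close libraries, in which all member calls held, were chosen after seeing the data. Signs turned only for small differences: after quantile normalization Nanog (0.067) and Trf (-0.11) in EPSCM against ES, Gipc1 (0.036) in EPSCM against 2iLIF and Foxa1 (0.0038) in 2iLIF against ES; Trf (-0.0069) after scaling to the same median ratio; with 1 library left out, Gipc1 (-0.12 to 0.060) and Foxa1 (-0.054 to 0.00031). The cause was not tested. No paired analysis was possible because the media share no replicate numbers in the labels; the covariate for library numbers of 16 and above groups 1 library of each medium, pairs none of the others, and lost no member call. Depth limits Foxa2, Cubn and the low Sox7 values most.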
